A study of Mus musculus with 10 samples.

Results

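TRGC1 and TRGC2 encode the constant regions of the T cell receptor gamma chain, and they were 2 of the 58735 human genes counted in 10 tumour libraries. They were taken by gene name, and the pair was selected on their measured levels over the 10 libraries, read beside androgen-driven prostate genes and beside TRAC, the constant gene of the T cell receptor alpha chain. Those levels and their likeness to these genes are therefore given below as a description without a test. The question behind the choice was whether gamma constant transcripts in these tumours go with prostate genes or with T cell genes.

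The tumours were grown under the skin from LNCaP, a human prostate cancer cell line that responds to androgen, in NOD.Cg-Prkdcscid Il2rgtm1Wjl/SzJ mice, which lack T, B and NK cells of their own. The IL-15 group (5 tumours) came from mice given sipuleucel-T (sip-T), a cell product from human blood that is directed at prostatic acid phosphatase, together with 1 µg of recombinant human IL-15 (rhIL-15), on which NK cells and memory T cells depend. Mice of the control group (5 tumours) had control sip-T and a sham dose of vehicle. Both groups received 4 weekly injections of 100 µl into the peritoneum, and tumours were collected on day 7 after the last. The sample labels name control sip-T for both groups whereas the design text names IL-15 treated cells, so treatment of the cells and injection of the cytokine cannot be told apart. A mouse per tumour is implied but not stated, and the sources used here do not give the number of cell donors, so a p-value reflects only how far these libraries spread.

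The human TRG locus on the short arm of chromosome 7 is rearranged in developing T cells, where a variable and a joining segment are brought next to a constant gene, and the resulting gamma chain pairs with a delta chain on gamma delta T cells. Cells of the alpha beta lineage often carry rearranged gamma genes as well. In prostate epithelium, LNCaP cells included, a transcript known as TARP starts within the locus upstream of the first constant gene, needs no rearrangement, encodes a protein unrelated in sequence to the receptor chain and responds to androgen. TARP shares exons with TRGC1 and was not analysed here as a gene of its own, so reads of the prostate transcript and of a T cell receptor transcript over those exons fall under the same name.

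TRGC1 (ENSG00000211689) lies on chromosome 7 from 38257879 to 38265678 on the minus strand of hg38. TRGC2 (ENSG00000227191) lies on the same strand from 38239580 to 38249572, 8.31 kb away. The counted exon lengths were 2730 bases for TRGC1 and 1013 bases for TRGC2. The coding exons of the pair are near-identical, so the division of reads between them is uncertain where a read fits both.

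TRGC1 held 378, 403, 443, 630 and 103 counts in IL-15 tumours 1 to 5, and 286, 100, 17, 572 and 185 counts in control tumours 1 to 5. Per length and depth this was 8.56, 7.12, 8.93, 14.9 and 2.53 FPKM, a level scaled to gene length and library size, in IL-15 tumours, and 6.01, 2.36, 0.393, 11.2 and 4.37 FPKM in control tumours. IL-15 tumour 4 and control tumour 4 were the highest libraries, control tumour 3 was far below all others, and the groups overlapped. From control tumour 3 to IL-15 tumour 4 the FPKM differed 37.9-fold, and TRGC1 stood above 69.9% to 94.7% of all genes in a library.

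TRGC2 was lower, with 29, 23, 24, 54 and 9 counts in IL-15 tumours 1 to 5, and 26, 4, 5, 23 and 7 counts in control tumours. In FPKM these were 1.77, 1.10, 1.30, 3.44 and 0.597 in IL-15 tumours and 1.47, 0.254, 0.312, 1.21 and 0.446 in control tumours. IL-15 tumour 4 was again the highest library, while control tumours 2, 3 and 5 were the lowest, and the groups overlapped. The FPKM range was 13.6-fold, and the lowest libraries, with 4 and 5 counts, lay close to the floor of 3 counts.

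**Figure D1:**
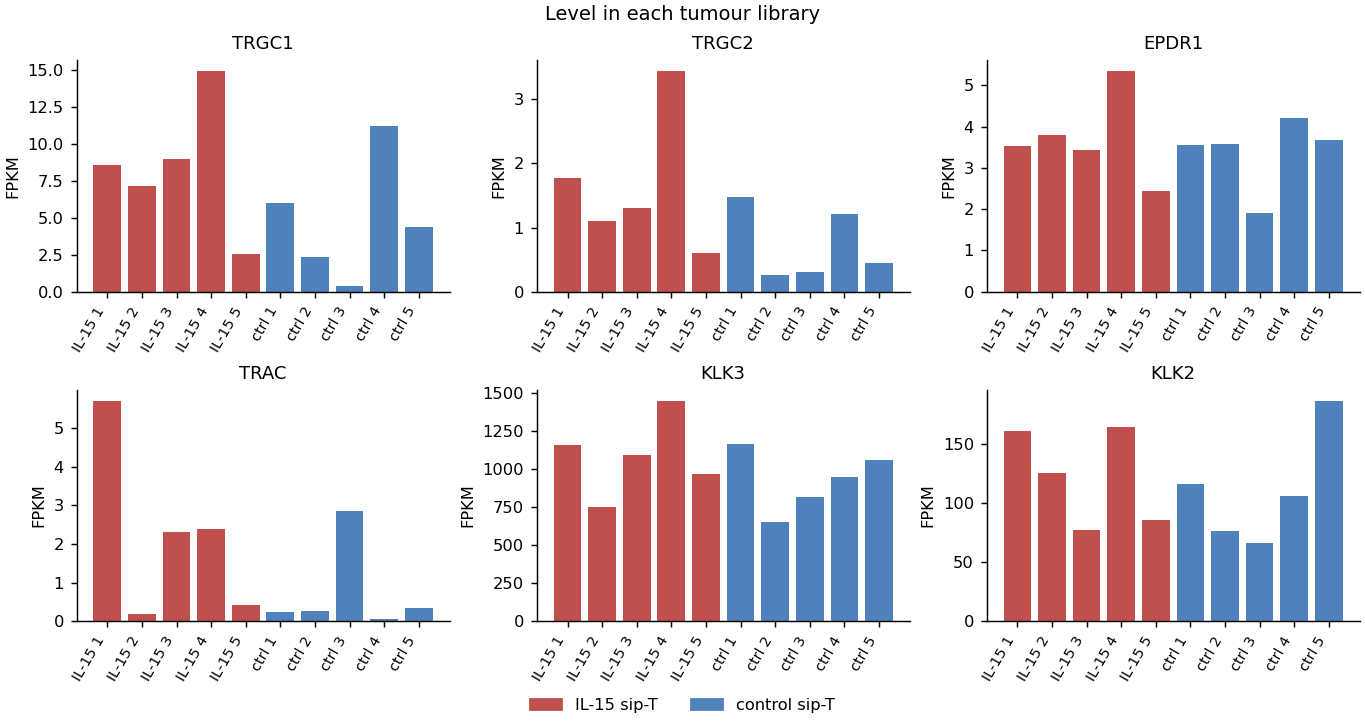
FPKM of TRGC1, TRGC2, EPDR1, TRAC, KLK3 and KLK2 in each tumour library, 1 bar per library, with IL-15 sip-T tumours on the left and control sip-T tumours on the right of each panel. TRGC1 and TRGC2 are highest in IL-15 tumour 4, whereas TRAC is highest in IL-15 tumour 1 and is next highest in control tumour 3, the library with the lowest TRGC1.

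TRGC1 and TRGC2 varied together over the libraries. On log2(CPM + 0.1), where CPM is the count scaled to the library's total count, Pearson's r between TRGC1 and TRGC2 was 0.83 and Spearman's rho 0.83 over 10 libraries. Without control tumours 2 and 3, the libraries farthest from the TRGC1 median, r was 0.85. Without control tumour 3 alone it was 0.90. The part of reads shared by the near-identical copies in this value was not tested. TRGC1 did not follow sequencing depth, with r of 0.03 and rho of -0.01 against the log2 total count.

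TRGC2 was the smaller share of gamma constant reads in every library. It made up 7.13%, 5.40%, 5.14%, 7.89% and 8.04% of all TRGC1 and TRGC2 counts in IL-15 tumours 1 to 5, against 8.33%, 3.85%, 22.7%, 3.87% and 3.65% in control tumours 1 to 5. Control tumour 3 had the highest share, but it rested on 22 counts, with an exact 95% binomial interval of 7.82% to 45.4%. That interval lay above those of IL-15 tumour 3 (3.32% to 7.55%), control tumour 4 (2.47% to 5.74%) and control tumour 5 (1.48% to 7.37%). It overlapped those of the remaining libraries, such as IL-15 tumour 4 (5.99% to 10.2%). In FPKM, TRGC1 exceeded TRGC2 by 4.25-fold to 6.85-fold in IL-15 tumours and by 1.26-fold to 9.81-fold in control tumours.

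TRAC, the defining constant gene of alpha beta T cells, showed another order of libraries. It held 90, 4, 41, 36 and 6 counts in IL-15 tumours 1 to 5, and 4, 4, 44, 1 and 5 counts in control tumours 1 to 5. The libraries fell into separate levels, with IL-15 tumours 1, 3 and 4 and control tumour 3 at 36 to 90 counts and the other 6 libraries at 1 to 6. Summed TRGC1 and TRGC2 had r of -0.02 and rho of -0.01 with TRAC over all 10 libraries on log2(CPM + 0.1). Leaving out each library in turn gave r of -0.18 to 0.44, the highest without control tumour 3, and leaving out the 2 libraries farthest from the median gave 0.40. These values are a description, since the pooled r rests on the gap between the levels and the counts within the lower level are few.

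Libraries with little TRAC still held gamma constant reads. Control tumour 4 had 1 TRAC count and no count of TRBC1 or TRBC2, the beta chain constant genes, beside 572 TRGC1 and 23 TRGC2 counts. IL-15 tumour 2 had 4 TRAC counts beside 403 TRGC1 counts. In the opposite direction, control tumour 3 had 44 TRAC counts, 21 TRBC1 counts and 13 TRBC2 counts, and in it TRGC1 and TRGC2 summed to 22 counts.

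For each count of TRAC, TRBC1 or TRBC2 there were 2.68, 53.3, 5.13, 8.66 and 9.33 counts of TRGC1 or TRGC2 in IL-15 tumours 1 to 5, and 22.3, 10.4, 0.282, 595 and 16 in control tumours 1 to 5. The ratio was lowest in control tumour 3 and highest in control tumour 4, where it rests on 1 TRAC count. In bulk tumour RNA, a lower number of T cells and less T cell receptor RNA per cell cannot be told apart.

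**Figure D2:**
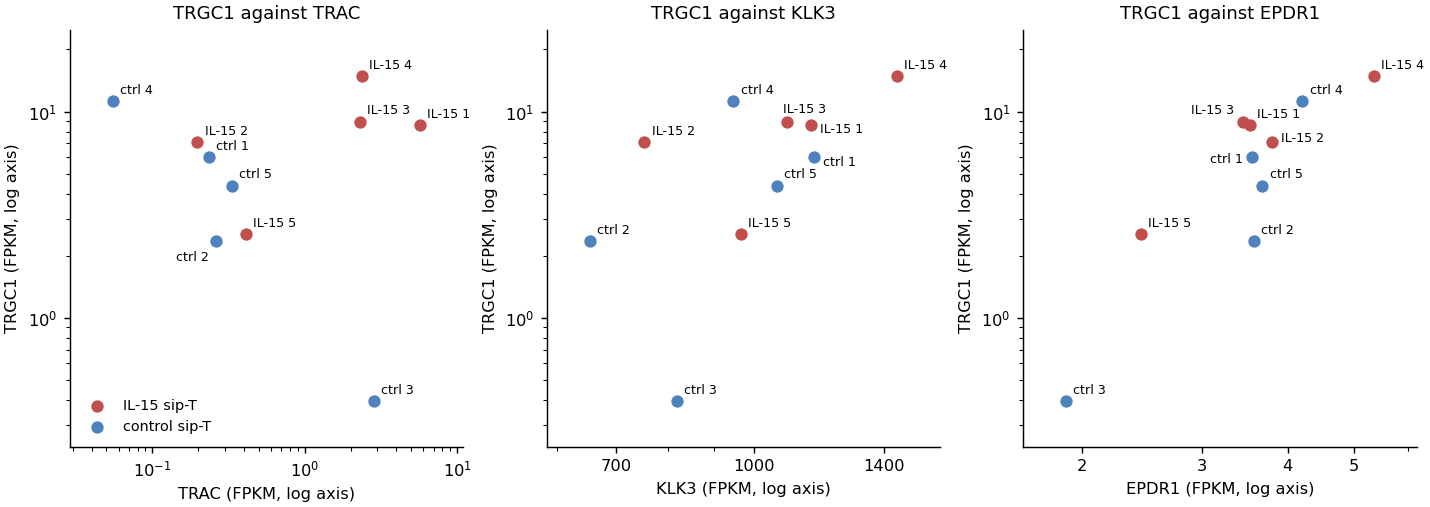
TRGC1 FPKM (vertical log axis) against FPKM of TRAC, KLK3 and EPDR1 (horizontal log axes), 1 point per library, red for IL-15 sip-T and blue for control sip-T tumours. Libraries high in TRGC1 occur at both TRAC levels, with control tumour 4 at 1 TRAC count and IL-15 tumour 4 at 36, whereas IL-15 tumour 4 is highest and control tumour 3 lowest in both TRGC1 and EPDR1. IL-15 tumour 4 is also highest in KLK3, in which control tumour 2 is lowest.

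Delta chain transcripts, which gamma delta T cells need beside a gamma chain, were close to 0. The 11 T cell receptor delta segments together held 0 to 4 counts in an IL-15 tumour and 0 to 2 in a control tumour, and 8 of them had no count in any library. TRDC, the delta constant gene, had 0, 1, 2, 0 and 4 counts in IL-15 tumours 1 to 5 and 0, 0, 2, 1 and 0 in control tumours 1 to 5. The libraries with the most TRGC1, IL-15 tumour 4 and control tumour 4, held 0 and 1 delta counts. A count of 0 allows up to 3 counts, which is 0.155 to 0.221 CPM in these libraries.

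Gamma variable and joining segments held fewer counts than the constant genes in every library. Together they had 25, 97, 34, 49 and 22 counts in IL-15 tumours 1 to 5 and 38, 15, 15, 104 and 25 counts in control tumours 1 to 5. That was 5.79% to 18.5% of all gamma segment reads in IL-15 tumours, and 10.9% to 40.5% in control tumours, where the upper value is again control tumour 3 (15 segment counts, exact 95% interval 24.8% to 57.9%). TRGV9, the variable segment of the main circulating gamma delta T cell subset, had 53 counts over the IL-15 tumours and 68 over the control tumours, spread over all 10 libraries with 4 to 27 counts each. TRGV10, regarded as unable to yield a functional chain, had 31 counts in IL-15 tumour 2 and 22 in control tumour 4, against 2 to 8 in the others. IL-15 tumour 2 and control tumour 4 were also the highest libraries for segment counts as a whole, and both had little TRAC. The shares above are of counts not scaled to length, and TRGV10 has 512 counted bases against 2730 for TRGC1. In FPKM, TRGV10 was above TRGC2 in IL-15 tumour 2 (2.92 against 1.10) and control tumour 4 (2.30 against 1.21). It was also above TRGC2 in control tumour 2 (0.377 against 0.254), and below TRGC2 in the other libraries.

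TRG-AS1 (ENSG00000281103), an antisense RNA gene on the plus strand, spans 38341577 to 38378804 and covers several variable segments. It held 32, 87, 34, 30 and 17 counts in IL-15 tumours 1 to 5 and 52, 17, 25, 112 and 43 in control tumours 1 to 5. Its highest libraries, control tumour 4 and IL-15 tumour 2, were those with the most variable segment counts. The sources used here do not say whether counting used strand, so antisense and sense reads in this stretch cannot be told apart. The constant genes lie 75.9 kb or more from TRG-AS1 and are not touched by this overlap.

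The list of variable and joining segments and TRG-AS1 held 20 genes of the table, of which 18 had a count and 11 had at least 10 counts in all. Pearson's r with TRGC1 was above 0 for each of the 11 and above 0.5 for 6, with a median of 0.52. With TRGC2 it was above 0 for 11 and above 0.5 for 2, with a median of 0.35. For comparison, 15.3% of 12605 protein-coding genes with a mean of at least 1 CPM had r above 0.5 with TRGC1 (median 0.11), and 17.3% had it with TRGC2 (median 0.13). Of the same 12605 genes, 7539 had r above 0 with TRGC1 and 7629 with TRGC2. AC006033.2, a long intergenic RNA gene between TRGV9 and TRGV7 that is not on the list, had 49 counts and r of 0.75 with TRGC1, and it was singled out after its values were seen. All these r values share the same 10 libraries, and the segments' low counts make each of them imprecise.

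**Figure D3:**
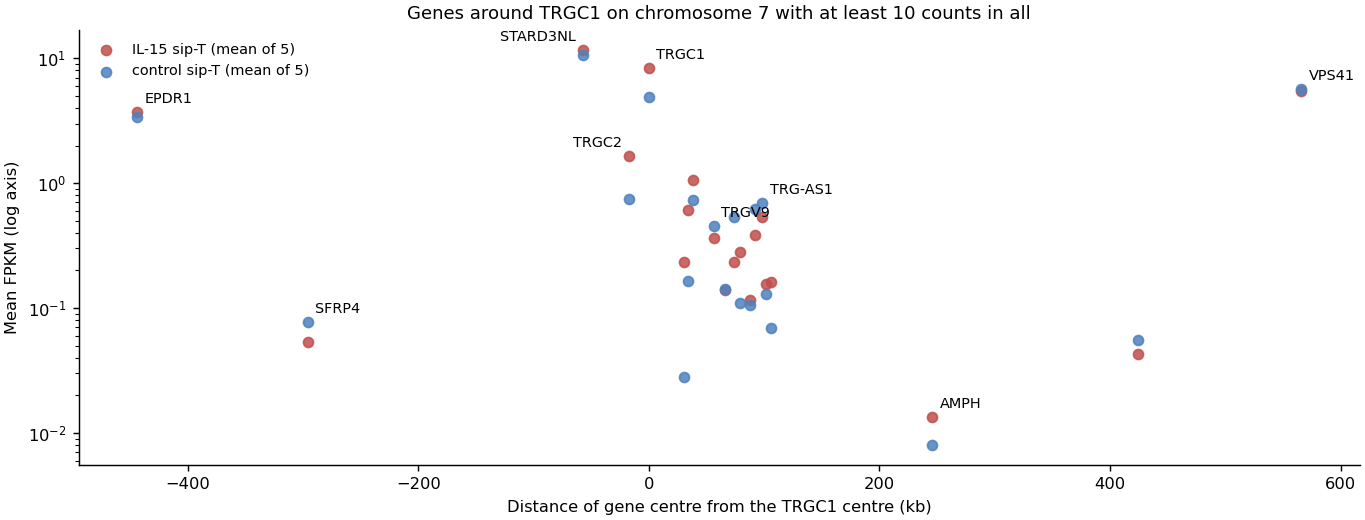
Mean FPKM (vertical log axis) of genes around TRGC1 with at least 10 counts in all, by distance of the gene centre from that of TRGC1 in kb, red for the mean of 5 IL-15 sip-T tumours and blue for the mean of 5 control sip-T tumours. TRGC1 stands at 8.41 FPKM in IL-15 and 4.87 FPKM in control tumours, above every variable segment and TRG-AS1. STARD3NL is higher, at 11.6 FPKM in IL-15 and 10.6 FPKM in control tumours.

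The androgen-driven prostate list held 20 genes, whose mean level over the 10 libraries ran from 0.995 FPKM for STEAP4, a metalloreductase gene, to 1006 FPKM for KLK3. Their summed level was 11060 to 17236 CPM in IL-15 tumours and 8160 to 12884 CPM in control tumours. Among them were KLK3 (prostate-specific antigen), KLK2 and KLK4 (further kallikrein proteases) and TMPRSS2 (a membrane serine protease). Pearson's r with TRGC1 was above 0.5 for 10 of the 20, with a median of 0.52, and above 0 for 15. With TRGC2 it was above 0.5 for 12, with a median of 0.56, and above 0 for 18. The share of 15.3% (TRGC1) or 17.3% (TRGC2) over all coding genes is the background to the counts above 0.5. For the counts above 0 the background is 7539 (TRGC1) or 7629 (TRGC2) of 12605 coding genes.

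The count for TRGC1 was smaller without the lowest libraries. Without control tumour 3, 6 of 20 genes were above 0.5 with a median of 0.48, against 15.6% of all coding genes, and without control tumours 2 and 3 it was 4 of 20 with a median of 0.27, against 16% of all coding genes. For TRGC2 the counts without these libraries were 11 (median 0.52) and 10 (median 0.45), against 15.5% and 16.9% of all coding genes.

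KLK3 was at 1159, 753, 1088, 1447 and 967 FPKM in IL-15 tumours 1 to 5 and 1166, 653, 819, 948 and 1061 FPKM in control tumours 1 to 5. IL-15 tumour 4 was the highest for KLK3 too, but the lowest was control tumour 2. The r of KLK3 was 0.64 with TRGC1 and 0.83 with TRGC2, and 0.45 and 0.67 without control tumours 2 and 3. KLK2 had r of 0.69 with TRGC1 and 0.61 with TRGC2, but 0.25 and 0.23 without those libraries.

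Some androgen-driven genes had r near or below 0. KLK4 had r of -0.14 with TRGC1 and -0.41 with TRGC2, and TMPRSS2 had -0.23 and 0.09. KLK4 was highest in control tumour 5 at 239 FPKM and lowest in IL-15 tumour 3 at 98.7 FPKM, neither of them at an end of the TRGC1 order. TRPM8, a cation channel of prostate epithelium, had the lowest r of the list with TRGC1, -0.49, which was -0.10 without control tumour 3. TRPM8 was singled out after its values were seen.

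Against the mean log2 level of all 20 androgen-driven genes, the sum of TRGC1 and TRGC2 had r of 0.71 and rho of 0.60. Leaving out each library in turn gave 0.66 to 0.80, and leaving out control tumours 2 and 3 together gave 0.48.

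**Figure D4:**
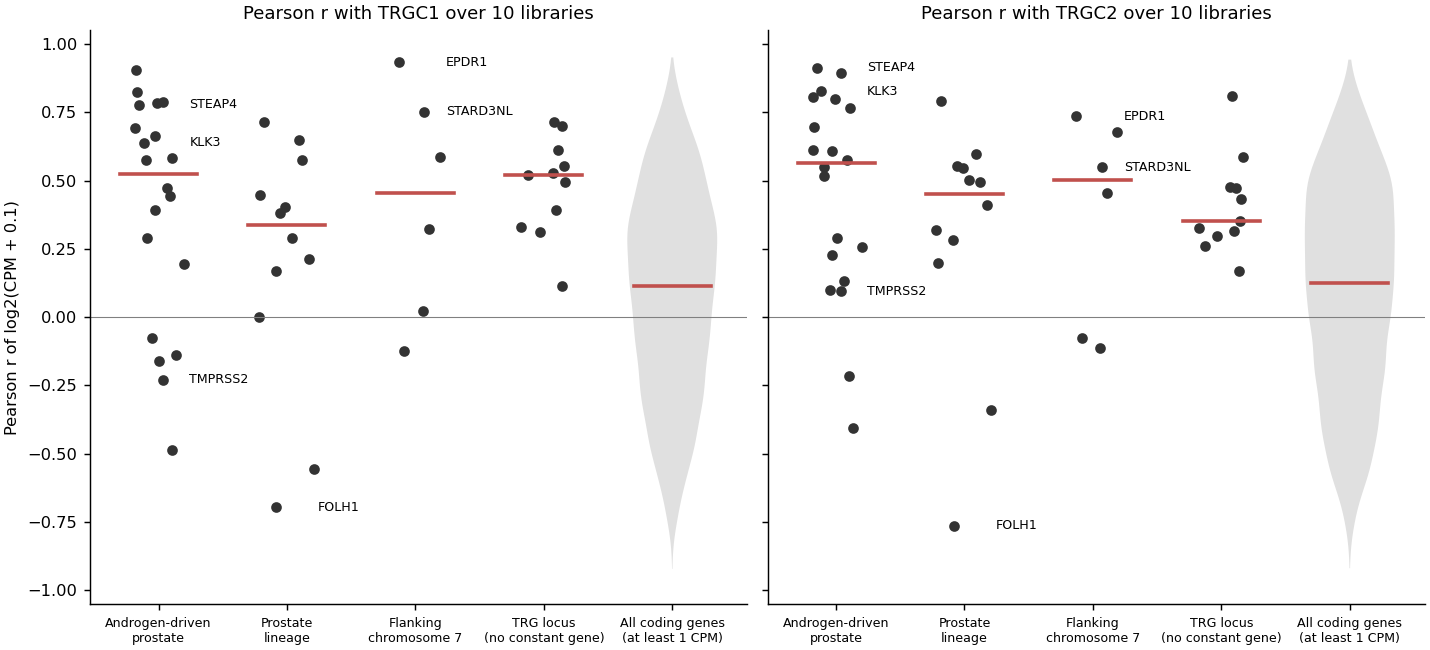
Pearson r of log2(CPM + 0.1) with TRGC1 (left) and TRGC2 (right) over 10 libraries, 1 point per gene with at least 10 counts in all, by gene list, with the median as a red line and the distribution over 12605 coding genes in grey. The androgen-driven list has a median of 0.52 with TRGC1 and 0.56 with TRGC2, against 0.11 and 0.13 over all coding genes, and its members spread from below 0 to over 0.8.

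Prostate lineage genes, listed apart from the androgen-driven genes, differed in sign. Whether they respond to androgen themselves was not tested. Of 12, r with TRGC1 was above 0 for 9 and above 0.5 for 3 (median 0.34). For TRGC2 it was above 0 for 10 and above 0.5 for 5 (median 0.45). Over the 12605 coding genes, r was above 0 for 7539 with TRGC1 and 7629 with TRGC2. It was above 0.5 for 15.3% and 17.3% of them. Whether the lineage counts differ from these shares was not tested. TSPAN1, a tetraspanin gene, had the highest r, 0.72 with TRGC1 and 0.79 with TRGC2, and 0.88 and 0.64 without control tumours 2 and 3. TSPAN1 was singled out after its values were seen. STEAP1, a membrane antigen of the prostate, had r of 0.65 with TRGC1 and 0.60 with TRGC2, but -0.45 and -0.29 without those libraries. KRT18, a luminal keratin gene, had r of 0.45 with TRGC1 and 0.20 with TRGC2. FOLH1, the gene of prostate-specific membrane antigen, had the lowest r, with values of -0.70 with TRGC1 and -0.76 with TRGC2. It measured 95.0, 118, 127, 110 and 115 FPKM in IL-15 tumours 1 to 5, against 140, 202, 218, 139 and 169 FPKM in control tumours 1 to 5. In FPKM every IL-15 tumour was below every control tumour, and control tumour 3, lowest in TRGC1, was the highest. In CPM the groups overlapped, with IL-15 tumour 3 at 604 CPM and control tumour 4 at 567 CPM. The log2 fold change of FOLH1 was -0.60 ± 0.16 (SE, adjusted p = 0.758 in edgeR's quasi-likelihood test with Benjamini-Hochberg adjustment). Without control tumours 2 and 3 its r was -0.19 with TRGC1 and -0.45 with TRGC2. HOXB13, a homeobox factor of the prostate lineage, had r of -0.56 with TRGC1 and -0.34 with TRGC2, and -0.27 and 0.06 without those libraries.

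Of the genes that flank the TRG locus, EPDR1 (ENSG00000086289), which encodes an ependymin-related secreted protein, had the highest r with TRGC1. EPDR1 lies from 37683843 to 37951941 on the plus strand, 306 kb from TRGC1. It measured 3.52, 3.79, 3.44, 5.34 and 2.44 FPKM in IL-15 tumours 1 to 5 and 3.54, 3.57, 1.90, 4.20 and 3.67 FPKM in control tumours 1 to 5. The top library was IL-15 tumour 4, followed by control tumour 4, and the lowest was control tumour 3, the same 3 libraries as for TRGC1, over a 2.82-fold range.

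The r of EPDR1 with TRGC1 was 0.93 and its rho 0.95, at place 2 among 12605 coding genes. It was 0.93 (place 6) without control tumours 2 and 3, but 0.82 (place 109) without control tumour 3 alone. With TRGC2 the r of EPDR1 was 0.74, at place 400. STARD3NL, an endosomal protein gene 27.2 kb from TRGC1 on its other side from the variable segments, had r of 0.75 with TRGC1 and 0.55 with TRGC2, whereas VPS41, a vesicle tethering gene 457 kb away, had -0.13 and -0.08.

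Over the 12605 coding genes, those most like TRGC1 were GOLT1A (r = 0.95), EPDR1 (0.93), ARAP3 (0.92), NMNAT2 (0.92) and SOX13 (0.92). Those most like TRGC2 were ADPGK (r = 0.94), FMOD (0.94), NEK3 (0.93), ALDH3B2 (0.92) and STEAP4 (0.91). STEAP4 belonged to the androgen-driven list, and its r with TRGC1 was 0.78. Both sets of 5 are the top of a ranking over 10 libraries and share no gene.

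The contrast of IL-15 tumours with control tumours was not used to choose TRGC1 and TRGC2 and was tested. TRGC1 averaged 8.41 ± 4.43 FPKM in IL-15 tumours and 4.87 ± 4.13 FPKM in control tumours, and TRGC2 averaged 1.64 ± 1.09 FPKM in IL-15 tumours and 0.740 ± 0.563 FPKM in control tumours (SD, n = 5 each). With edgeR's quasi-likelihood test on counts and Benjamini-Hochberg adjustment over all tested genes, the log2 fold change of TRGC1 was 0.80 ± 0.71 (SE, adjusted p = 0.848). That of TRGC2 was 1.14 ± 0.55 (SE, adjusted p = 0.772 by the same edgeR test). Neither passed the threshold of 0.05 on the adjusted p.

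The test called 0 of 16913 genes (0%) at an adjusted p of 0.05 in edgeR, with 1092 genes (6.46%) at an unadjusted p under 0.05. DESeq2 called 15 and limma voom 0. TRGC1 and TRGC2 were among the most variable genes of the table. The biological coefficient of variation of TRGC1 was 0.751, above that of 98.0% of tested genes, and that of TRGC2 was 0.574, above 95.0%, against a common value of 0.306.

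Leaving out single libraries moved the TRGC1 log2 fold change, which was 0.80 over all 10 libraries. It was 0.50 without IL-15 tumour 4, 0.50 without control tumour 3 and 1.36 without control tumour 4, with adjusted p of 0.933, 0.978 and 0.596 in edgeR. For TRGC2 the estimate was 0.68 without IL-15 tumour 4 (edgeR adjusted p = 0.884).

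**Figure D5:**
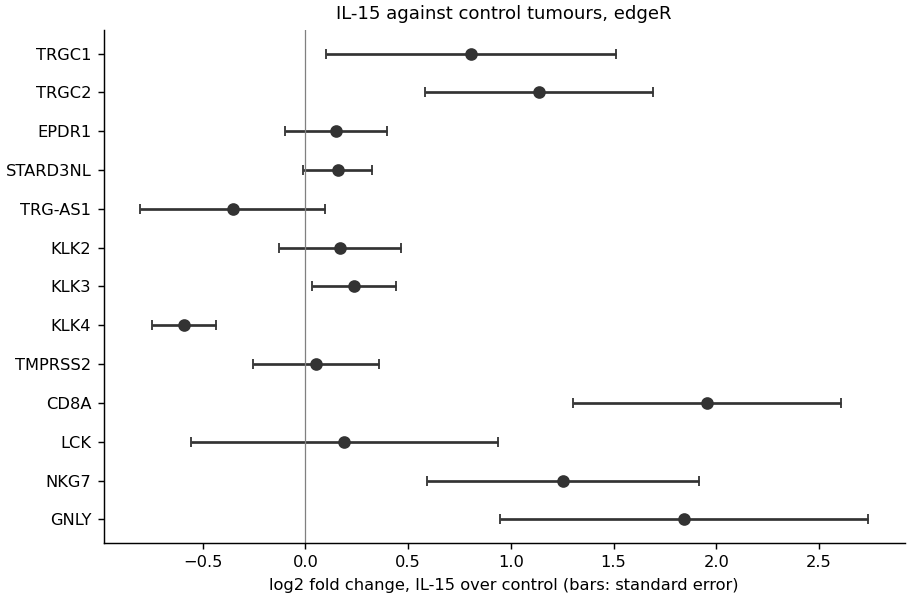
log2 fold change of IL-15 sip-T over control sip-T tumours (horizontal axis) with its standard error as a bar, from edgeR, for TRGC1, TRGC2 and genes of the locus, prostate and lymphocyte lists. TRGC1 (0.80) and TRGC2 (1.14) lie above 0 with wide errors. KLK4 lies at -0.59, LCK at 0.19, GNLY at 1.84 and CD8A at 1.95, and none of the genes plotted passed the test. GZMA, at 3.42, was tested but is not plotted.

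Prostate and lymphocyte lists gave the following values in the same comparison, where 49% of all 16913 tested genes had a log2 fold change above 0. Of the 20 androgen-driven genes 15 were above 0 and 5 below, with a median of 0.23, and 0 were called by edgeR at an adjusted p of 0.05 and 1 at an unadjusted p under 0.05. KLK3 had 0.24 ± 0.20 and KLK4 had -0.59 ± 0.16 (log2 fold change ± SE). KLK4, the 1 at an unadjusted p under 0.05, measured 118 ± 15.4 FPKM in IL-15 tumours and 180 ± 36.0 FPKM in control tumours (SD, n = 5 each). Its adjusted p was 0.758 in the edgeR test. The KLK4 groups did not overlap in FPKM but did in CPM, with IL-15 tumour 1 at 323 CPM and control tumour 3 at 304 CPM.

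Of the listed genes inside the locus, the 2 tested lay below 0, TRGV9 at -0.32 ± 0.45 and TRG-AS1 at -0.35 ± 0.45 (log2 fold change ± SE). Their standard errors cover 0, and their difference from TRGC1 and TRGC2 was not tested. EPDR1 had 0.15 ± 0.25 and STARD3NL 0.16 ± 0.17.

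T cell and cytotoxic genes were scarce, so few could be tested. Of 16 genes of the CD3 complex and proximal T cell receptor signalling, 5 passed the low-count filter, 5 of them above 0 with a median of 0.56. Of 14 NK and cytotoxic genes 4 passed, 4 above 0 with a median of 2.06. In each list 2 genes had an unadjusted p under 0.05 in edgeR, and 0 were called. Over all tested genes 6.46% had such an unadjusted p. GZMA, a granzyme gene, had a log2 fold change of 3.42 ± 0.89 (SE, adjusted p = 0.758 in the edgeR test). A scarce gene passes the filter more readily where a group holds it high, so these counts and the GZMA value are no support for a direction. The summed CD3 and signalling list ranged over 6.73 to 49.0 CPM in IL-15 tumours and 6.13 to 18.4 CPM in control tumours, and the summed NK and cytotoxic list over 3.98 to 42.9 CPM in IL-15 tumours and 1.15 to 15.1 CPM in control tumours. TRAC, TRBC1 and TRBC2, which the filter removed, together had 342 counts in IL-15 and 115 in control tumours. These sums are higher on average in the group with the higher TRGC1 and TRGC2 means, and their part in that difference was not tested.

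CD8A, the coreceptor of cytotoxic T cells, held 164, 28, 157, 77 and 38 counts in IL-15 tumours 1 to 5 and 16, 22, 61, 11 and 8 counts in control tumours 1 to 5. Its order resembled that of TRAC, with IL-15 tumours 1, 3 and 4 and control tumour 3 among the top libraries. CD3D, a subunit of the CD3 complex, had 23, 2, 9, 15 and 0 counts in IL-15 tumours and 1, 1, 9, 0 and 1 counts in control tumours. LCK had 53, 7, 26, 42 and 10 counts in IL-15 tumours and 24, 43, 39, 1 and 13 counts in control tumours. It departed from the TRAC order, with 43 LCK counts beside 4 TRAC counts in control tumour 2. Control tumour 4, with the second-highest TRGC1, had 0 CD3D, 11 CD8A and 1 LCK counts. IL-15 tumour 4, with the highest TRGC1, had 15 CD3D and 77 CD8A counts. B cell genes stood at 0.05 to 0.59 CPM in sum in IL-15 tumours and 0.26 to 0.64 CPM in control tumours. Monocyte and macrophage genes stood at 1.55 to 3.42 CPM in sum in IL-15 tumours and 1.46 to 2.21 CPM in control tumours.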

How the data were processed

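Per the labels' protocols, tumour RNA was isolated with TRIzol and read by Illumina sequencing (10 libraries). The build hg38 and the tools featureCounts 1.5.0-p3, HISAT2 2.0.5, fastp, GATK 4.1.1.0 and DESeq2 1.20.0 appear in the submitters' processing notes without their roles. The sources used here give neither strand nor annotation release, nor whether mouse reads were removed. The labels give mouse as the organism, whereas the genes are human. The deposited table holds raw read counts per gene, per the file headers. FPKM values were computed by the authors, and the library total behind them is not given. The coordinates are those deposited, on hg38. A deposited table of group means was not used.

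Total counts per library were 13560224 to 19324056. A floor of 3 counts equals 0.155 to 0.221 CPM. Intervals are exact binomial at 95% and, like the floor, cover counting error only.

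Groups came from the labels, 5 libraries each. Chi-square per degree of freedom was 11.2 or more in all 45 pairs of libraries, so none agreed within sampling noise. Genes passing edgeR's filterByExpr (minimum count 10, 16913 genes) went, after TMM scaling, into the quasi-likelihood test of edgeR 4.0.16 in R 4.3.3, with Benjamini-Hochberg adjustment at 0.05. DESeq2 1.42.0 and limma 3.58.1 were alternatives. Correlations used log2(CPM + 0.1) of genes with at least 10 counts in all and carry no p-value. The members and the 10 gene lists were chosen with earlier results of these data known.

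The named genes were TRGC1, TRGC2, the alpha, beta and delta constant genes, KLK2, KLK3, KLK4 and TMPRSS2, locus and delta segments with 10 or more counts, up to 4 members of each other list by mean FPKM, and the 5 coding genes of at least 1 CPM most like each constant gene. A further gene that the rule takes is not reported here by name. Y-linked genes and XIST stayed out of the tables. ACP3 was matched as ACPP. The counts of androgen-driven genes without the lowest libraries were chosen after seeing the data.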

Additional observations from a re-analysis of the deposited data

Results flagged for a closer look

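Control tumour 3 stood apart from the other control tumours in T cell receptor constant genes. TRAC measured 2.80 CPM in it, and TRBC1 measured 1.34 CPM, each separated from the other 4 control tumours by a gap that took up most of the group's range. TRAC was among the values by which the gamma constant genes were chosen, so this is a description and no test. The same library had the lowest TRGC1 of the series. These were 2 of 22 sets examined (11 genes in each group), and chance alone nominally marks about 1 in 20 such sets. Both came from the same library and from genes with few counts. They are therefore not independent, and the nominal rate may not hold. The cause was not tested.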

How the results depend on the processing

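The log2 fold changes of TRGC1 and TRGC2 were above 0 in edgeR and in each of the 20 alternatives run for each gene. They ranged over 0.50 to 1.36 and 0.57 to 1.54. None passed the threshold on the adjusted p, which was 0.596 to 0.999 and 0.515 to 0.999 in the alternatives. The unadjusted p of TRGC2, 0.061 in the main edgeR fit, was under 0.05 in some alternatives and above it in others. It ran from 0.014 with the replicate block to 0.231 without IL-15 tumour 4, both in edgeR. For TRGC1 the lowest unadjusted p was 0.086, in edgeR without control tumour 4. Leaving out each library in turn gave 0.50 to 1.36 for TRGC1 and 0.68 to 1.54 for TRGC2, and called 0 genes each time. The number of genes called, 0 in edgeR, was 1 without a low-count filter and 15 with DESeq2, the cause of which was not tested. The count of androgen-driven genes with r above 0.5 with TRGC1, 10 over all libraries, was 6 without control replicate 3 and 4 without control replicates 2 and 3. The correlation of summed TRGC1 and TRGC2 with the androgen-driven list, 0.71, was 0.48 without these 2 libraries. Correlations of deviations from the group means between same-numbered libraries were -0.22 to 0.26. Different-numbered libraries were not compared in this way, so whether replicate numbers pair the samples cannot be decided from these values. With the replicate block the values were 1.06 (TRGC1) and 1.23 (TRGC2), with 0 genes called. Depth limits TRGC2, TRAC and the variable segments, whose lowest libraries hold few or no counts.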
